A study of Mus musculus with 24 samples.

Results

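BPN/3J is an inbred normotensive mouse strain kept as the control for the hypertensive strain BPH/2J, and the values below follow its hypothalamus from 6 to 26 weeks of age. The members are the 12 arrays whose titles name BPN at 26 weeks (6 male mice) or at 6 weeks (6 male mice), out of 24 arrays in all. The other 12 arrays are male BPH/2J mice of the same ages, 6 at each. Every mouse had standard housing and no treatment, every hypothalamus was taken whole at the daily peak of blood pressure, and RNA of each mouse went to its own Affymetrix Mouse Gene 1.0 ST array. A replicate is therefore a separate mouse, and the number of arrays limits the precision.

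Levels are the deposited RMA values in log2 units, and a difference is the mean at 26 weeks minus the mean at 6 weeks, so that a difference of 1 is a 2-fold change. A difference is given ± its SE from limma with n = 6 mice at each age, and a gene passed when its Benjamini-Hochberg adjusted p over 19937 genes was below 0.05. Levels are not compared between genes, since each probe set has its own brightness. In whole tissue, fewer cells of a type and less RNA per cell cannot be told apart.

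The hypothalamus sets feeding, arousal, fluid balance and autonomic tone through small groups of neurons that release neuropeptides such as orexin, CART, vasopressin and oxytocin. Myelin is laid down by oligodendrocytes, which arise from precursor cells through a short-lived premyelinating stage marked by the receptor Gpr17, and this process continues through adolescence. Myelin is rich in cholesterol, which the brain makes itself because lipoproteins do not cross the blood-brain barrier. The labelled tissue was checked against its own peptides: Pmch, the melanin-concentrating hormone precursor of the lateral hypothalamus, lay between 11.44 and 12.18 at 6 weeks and between 11.31 and 12.46 at 26 weeks, and Hcrt, the orexin precursor, reached 10.29.

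At 26 weeks, 2445 of 19937 genes differed from 6 weeks (12.3%), 917 higher (4.6%) and 1528 lower (7.66%). Counts of BPN genes that rose or fell in the lists below are to be read beside these shares of 4.6% and 7.66%. The changes were mostly small: 108 genes changed at least 1.5-fold, 62 higher and 46 lower, and 8 at least 2-fold. The genes that fell included markers of premyelinating and mature oligodendrocytes, enzymes of cholesterol synthesis and the neuropeptide precursors Hcrt and Cartpt. Among those that rose with no overlap between the ages, the lipid transporter Abca8a and the alarmin Il33 had the largest differences. The 6 arrays of one age lay wholly apart from the 6 of the other for 744 genes that also passed (3.73%), 203 of them higher (1.02%) and 541 lower (2.71%) at 26 weeks. Groups without overlap, whether or not a gene passed, made up 1.25% of all genes as higher and 3.32% as lower. The median difference over all genes was -0.03 and the median SE was 0.09. The largest fall of any passing gene, named for its size after the values were seen, was that of Usp17ld, a deubiquitinase gene with near-identical copies (-2.14 ± 0.69, adjusted p = 0.0436), which differed by -3.36 in 26-week replicates 1 to 4 and by 0.30 in replicates 5 and 6.

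**Figure D1:**
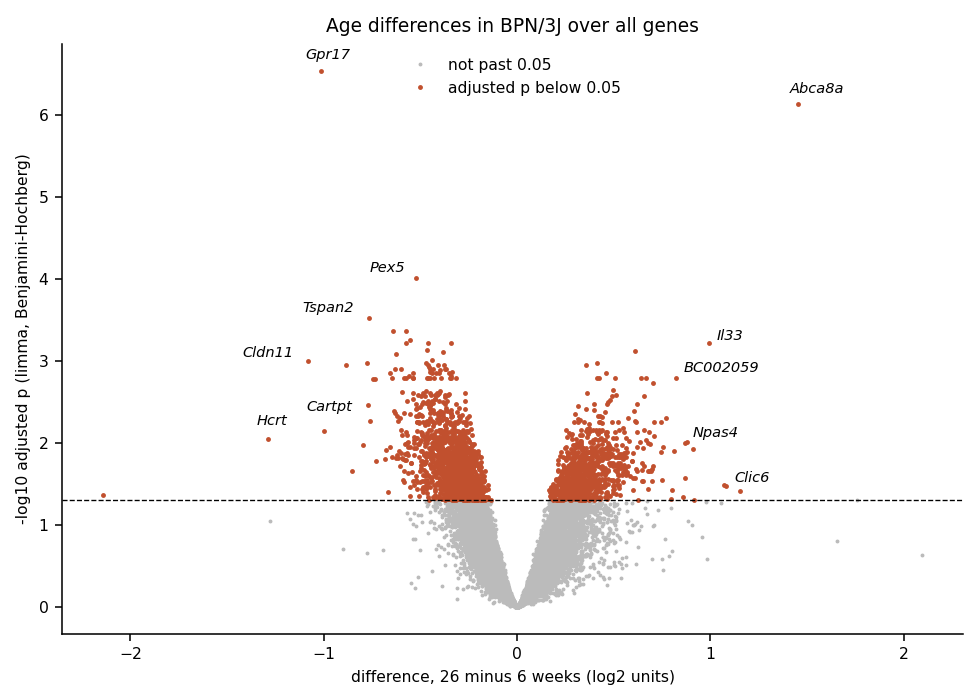
Each point is 1 of 19937 genes in BPN/3J hypothalamus. The x axis is the difference, 26 minus 6 weeks, in log2 units, the y axis is -log10 of the limma adjusted p, the dashed line marks an adjusted p of 0.05 and red points passed it. Gpr17 and Abca8a stand above all others, and the red point farthest to the left is Usp17ld at -2.14, whose groups overlap.

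The count of genes rested on which mice were in the fit. Without 26-week replicate 1, 2 or 4 it fell to 1382, 1151 and 1034, without 6-week replicate 1, 3 or 4 to 1299, 1521 and 1545, and without 26-week replicate 5 it rose to 4230. The 26-week mice also spread more: the median SD of a gene was 0.10 over the 6 arrays of 6 weeks and 0.18 over the 6 of 26 weeks. Among the 26-week arrays, replicates 1 to 4 and replicates 5 and 6 are shown apart for many genes and lists; the labels give no reason for a division, and it was known to matter from earlier results of these data.

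With limma on 3 groups of BPN arrays, replicates 1 to 4 differed from 6 weeks in 6104 genes (30.6%), 3001 higher (15.1%) and 3103 lower (15.6%). Replicates 5 and 6 differed from the same 6-week arrays in 15 genes (0.0752%), 5 higher (0.0251%) and 10 lower (0.0502%), and in 2875 genes at an unadjusted p below 0.05. The second contrast has 2 mice in place of 4. In simulated data it recovered 93.45% of changes of 1 log2 unit and 38.4% of changes of 0.5, against 97.9% and 63.2% for replicates 1 to 4. The simulation gave each gene the same spread in every group, pooled over both strains, and changed 200 genes. The real 26-week mice spread more than the 6-week mice, so these rates need not hold for either contrast. The count for replicates 5 and 6 was between 3 and 6 without 6-week replicate 1, 3, 4, 5 or 6. Without 26-week replicate 5 or 6 the arm is 1 mouse, which has no spread of its own. Such a fit cannot say how far the 15 calls rest on either mouse. The median absolute distance of a gene from its 6-week mean was 0.11 in replicate 5 and 0.16 in replicate 6.

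Among the 15 genes that passed in replicates 5 and 6, chosen here for that result, Abca8a differed by 1.41 there and by 1.47 in replicates 1 to 4. Gpr17 differed by -0.89 and -1.08. Pex5, the receptor that carries enzymes into peroxisomes, differed by -0.55 and -0.50. Hmgcs1, an early enzyme of cholesterol synthesis, differed by -0.51 and -0.34. The largest of the 15 was Npvf, the precursor of RFamide peptides of the dorsomedial hypothalamus, at -1.66 in replicates 5 and 6, where replicates 1 to 4 gave 0.17. Fbln1, a matrix glycoprotein, differed by -0.69 and -0.17.

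**Figure D2:**
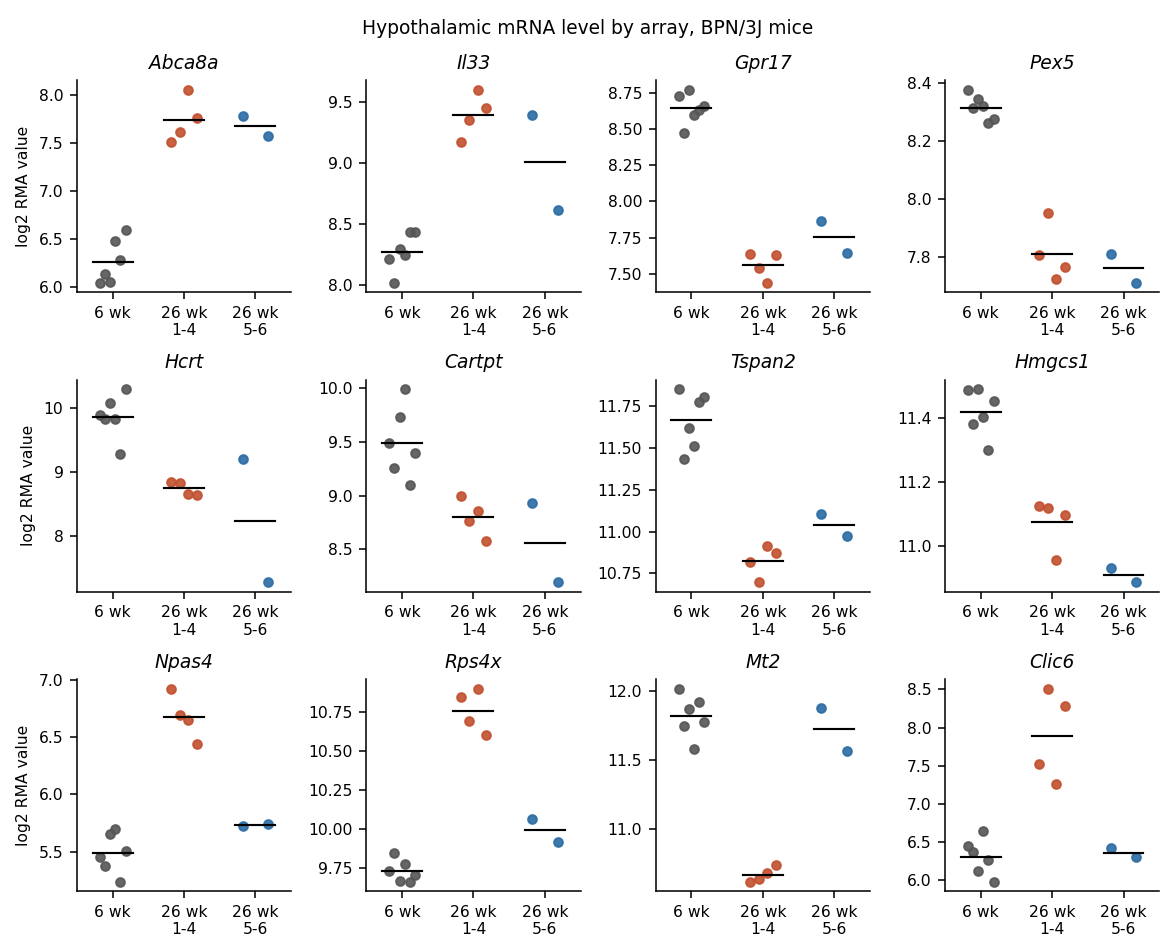
Each point is 1 BPN/3J mouse, the y axis of each panel is the log2 RMA value of the named gene and the bar is the mean of the points above each label (6 mice at 6 weeks, replicates 1-4 and replicates 5-6 at 26 weeks). In Abca8a, Gpr17, Pex5 and Hmgcs1 all 26-week mice lie on one side of the 6-week mice, while Clic6 of replicates 5 and 6 and Mt2 of replicate 5 lie among the 6-week values and Mt2 of replicate 6 (11.57) lies just below the lowest of them (11.58).

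Gpr17, the receptor of premyelinating oligodendrocytes, gave the smallest p of all genes. It ran from 8.47 through a median of 8.64 to 8.77 at 6 weeks and from 7.44 through 7.63 to 7.87 at 26 weeks. The groups did not overlap, and the level fell by 1.02 ± 0.09 (adjusted p = 2.89e-07), or 2.02-fold. Olig1, a transcription factor of the oligodendrocyte lineage, ran from 9.61 through 9.77 to 9.93 at 6 weeks and from 9.21 through 9.27 to 9.56 at 26 weeks, again with no overlap (-0.45 ± 0.07, adjusted p = 0.00137). Enpp6, a choline phosphodiesterase of newly formed oligodendrocytes, ran from 6.89 through 7.43 to 7.58 and from 6.10 through 6.74 to 7.12, and these ranges overlapped (-0.68 ± 0.16, adjusted p = 0.0123).

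Over the fixed list of oligodendrocyte precursors and newly formed oligodendrocytes, 0 of 18 measured genes rose and 6 fell, with a median difference of -0.16 beside -0.03 over all genes. The other 3 that fell were Bmp4 (-0.38), which restrains the maturation of precursors, the kinase Fyn (-0.26) and the proteoglycan Cspg5 (-0.16). Pdgfra, the growth factor receptor of the dividing precursors, stood at 9.20 at 6 weeks and 9.07 at 26 weeks (-0.13 ± 0.09, adjusted p = 0.346). Cspg4, the NG2 proteoglycan of the same cells, did not pass either (-0.19, adjusted p = 0.0762). The list mean of each array ran from 8.14 to 8.29 at 6 weeks and from 7.92 to 8.08 at 26 weeks, so every 26-week mouse lay below every 6-week mouse. The median difference was -0.19 in replicates 1 to 4 and -0.19 in replicates 5 and 6.

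Genes of mature oligodendrocytes and myelin fell as well, with 0 of 19 higher, 9 lower and a median difference of -0.45. Tspan2, a tetraspanin of myelinating cells, ran from 11.43 through 11.70 to 11.85 at 6 weeks and from 10.70 through 10.89 to 11.10 at 26 weeks (-0.77 ± 0.10, adjusted p = 0.000301). Mal, a proteolipid that sorts cargo into myelin, ran from 10.52 through 10.91 to 11.15 and from 9.90 through 10.02 to 10.31 (-0.78 ± 0.12, adjusted p = 0.00105). Neither gene's groups overlapped. Cldn11, the tight junction protein of myelin, fell by 1.08 ± 0.17 (adjusted p = 0.00100), with ranges of 10.17 to 10.88 and 9.15 to 10.24 that touched through 26-week replicate 5.

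The actin-severing protein Gsn (-0.88), the myelin glycoprotein Mog (-0.65), the phosphodiesterase Cnp (-0.64), the fatty acid hydroxylase Fa2h (-0.59), the adhesion molecule Mag (-0.48) and the iron carrier Trf (-0.39) made up the rest of the 9. The other 10 genes did not pass. Mbp, the myelin basic protein, ran from 10.81 through 10.93 to 11.08 at 6 weeks and from 10.77 through 10.84 to 10.93 at 26 weeks (-0.08 ± 0.08, adjusted p = 0.527). Values nearest to 0 were those of Myrf (-0.04), Car2 (-0.05), Aspa (0.07) and Plekhb1 (-0.10), and Opalin (-0.50), Ugt8a (-0.45), Gjb1 (-0.29), Mobp (-0.26) and Ermn (0.17) were farther from it. The list mean per array ran from 9.72 to 10.32 at 6 weeks and from 9.47 to 9.98 at 26 weeks, and the groups overlapped through 6-week replicate 2, the lowest of its group. The median difference was -0.41 in replicates 1 to 4 and -0.37 in replicates 5 and 6, whose list means were 9.98 and 9.50.

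Enzymes of cholesterol synthesis moved downward, with 0 of 18 higher, 8 lower and a median difference of -0.19. Hmgcs1, which makes the substrate of the rate-limiting reductase, ran from 11.30 through 11.43 to 11.49 at 6 weeks and from 10.89 through 11.03 to 11.12 at 26 weeks (-0.40 ± 0.07, adjusted p = 0.00130). Mvd, the decarboxylase that yields isopentenyl diphosphate, ran from 8.29 through 8.41 to 8.68 and from 7.66 through 7.78 to 8.26 (-0.60 ± 0.10, adjusted p = 0.00127). Lss, which closes squalene epoxide to lanosterol, ran from 8.16 through 8.20 to 8.42 and from 7.68 through 7.79 to 7.89 (-0.46 ± 0.07, adjusted p = 0.00113). In none of these 3 genes did the ages overlap.

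Further along the pathway, Cyp51, the demethylase of lanosterol, fell by 0.36 ± 0.07 (adjusted p = 0.00412), and Ebp, a sterol isomerase, differed by -0.37. Sqle, the squalene epoxidase, differed by -0.22. The regulators moved the same way: Srebf2, the transcription factor that drives the pathway's genes, differed by -0.27, and Insig1, which holds its activation in check, by -0.45. Fdft1 (0.00), Fdps (0.05), Nsdhl (0.18) and Stard4 (-0.08) did not pass. The median difference was -0.22 in replicates 1 to 4 and -0.15 in replicates 5 and 6, where 18 of 18 genes lay below their 6-week mean. Such a lean was not particular to this list: in replicates 5 and 6 the median over all genes was -0.04. There 15 of 15 meninges markers and 24 of 25 genes of immature neurons also lay below, while 21 of 26 ribosomal genes lay above. The list mean per array ran from 9.45 to 9.56 at 6 weeks and from 9.20 to 9.42 at 26 weeks, with no overlap.

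The promoters of 3 of these genes that fell are shown because SREBP2, the product of Srebf2, is known to bind sterol elements beside NF-Y boxes in genes of this pathway. Each run holds the 250 bases before the transcription start of the RefSeq entry (GRCm38.p6), with capitals at TCACNCCAC, a form of the sterol regulatory element, and at CCAAT, the NF-Y box, on either strand, so that ATTGG is the box read from the other strand. Hmgcs1 lies at chr13:119690101-119690350 (+ strand), Lss at chr10:76531355-76531604 (+ strand) and Cyp51 at chr5:4104698-4104947 (- strand).
Hmgcs1: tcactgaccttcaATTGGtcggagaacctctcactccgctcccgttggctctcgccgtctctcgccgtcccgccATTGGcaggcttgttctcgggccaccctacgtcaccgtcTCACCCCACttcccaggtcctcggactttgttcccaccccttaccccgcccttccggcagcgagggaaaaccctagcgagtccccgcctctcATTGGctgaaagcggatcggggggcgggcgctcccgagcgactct
Lss: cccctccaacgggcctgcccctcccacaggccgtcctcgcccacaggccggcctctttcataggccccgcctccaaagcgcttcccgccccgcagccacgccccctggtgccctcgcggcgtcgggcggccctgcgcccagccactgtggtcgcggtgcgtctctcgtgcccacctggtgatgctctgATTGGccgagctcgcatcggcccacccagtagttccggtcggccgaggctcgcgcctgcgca
Cyp51: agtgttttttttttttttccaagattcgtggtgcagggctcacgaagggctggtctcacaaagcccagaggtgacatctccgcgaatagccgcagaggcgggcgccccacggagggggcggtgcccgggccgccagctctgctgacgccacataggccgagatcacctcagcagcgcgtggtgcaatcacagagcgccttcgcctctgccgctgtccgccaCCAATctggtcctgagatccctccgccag
Of the 18 list genes, 14 had a promoter entry and all 14 held CCAAT, which 37.5% of all genes hold in a window of this length. TCACNCCAC was found in 1 of the 14, Hmgcs1, at 137 bases before the start, and in 1.22% of all genes. The 2 motifs share no letters in these runs, and a match is a description of letters only.

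**Figure D3:**
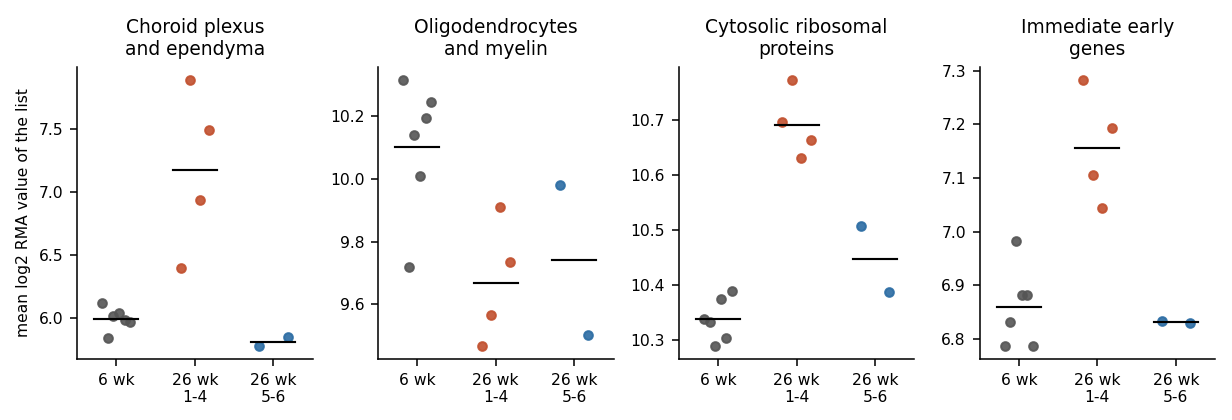
Each point is 1 BPN/3J mouse and the y axis is the mean log2 RMA value over the measured genes of a list, with a bar at the mean of the points above each label (6 weeks, 26-week replicates 1-4, 26-week replicates 5-6). The oligodendrocyte and myelin mean of every 26-week mouse lies below those of all 6-week mice except replicate 2 (9.72). It is 9.98 in 26-week replicate 5 and 9.50 in replicate 6. The choroid plexus means of 26-week replicates 5 and 6 lie at or below the 6-week range and their immediate early means lie within it.

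Of 36 neuropeptides and releasing hormones, 0 rose and 3 fell, beside 4.6% and 7.66% of all genes, with a median difference of -0.04. Hcrt, whose product orexin sustains wakefulness and feeding, ran from 9.28 through 9.87 to 10.29 at 6 weeks and from 7.29 through 8.75 to 9.20 at 26 weeks. Its groups did not overlap and it fell by 1.29 ± 0.29 (adjusted p = 0.00887), or 2.44-fold, by -1.12 in replicates 1 to 4 and -1.62 in replicates 5 and 6. Replicate 6 alone was at 7.29, far below the next 26-week mouse at 8.65. Cartpt, the precursor of the satiety peptide CART, ran from 9.10 through 9.44 to 9.98 and from 8.20 through 8.81 to 8.996 (-0.77 ± 0.15, adjusted p = 0.00349). Vgf, a granin-like precursor of many neurons, differed by -0.36 ± 0.08 (adjusted p = 0.00858), also with no overlap.

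The magnocellular peptides varied widely among mice of the same age. Oxt, the oxytocin precursor, ran from 8.64 through 9.50 to 11.20 at 6 weeks and from 7.10 through 8.51 to 9.99 at 26 weeks (-1.28 ± 0.50, adjusted p = 0.0897). Avp, the vasopressin precursor, ran from 7.24 through 8.15 to 9.30 and from 6.64 through 7.30 to 8.56 (-0.78 ± 0.42, adjusted p = 0.218). The ages overlapped in both genes.

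Pomc, the precursor of the melanocortins, ran from 5.95 through 6.03 to 6.67 at 6 weeks and from 6.04 through 7.23 to 8.27 at 26 weeks, and its difference of 1.05 ± 0.36 did not pass (adjusted p = 0.0537). It differed by 1.48 in replicates 1 to 4 and by 0.20 in replicates 5 and 6. Over all 6 mice Npy differed by 0.33, Sst by 0.36, Trh by -0.39, Gal by -0.18, Crh by -0.10, Kiss1 by -0.25, Pmch by 0.06, Ghrh by 0.04 and Gnrh1 by 0.01, and none of these passed (adjusted p from 0.167 to 0.964). Several of them had opposite signs in the 2 sets of mice. Sst, the somatostatin precursor, differed by 0.67 in replicates 1 to 4 (limma adjusted p = 0.00485) and by -0.27 in replicates 5 and 6 (0.562), and Npy, a peptide that drives feeding, by 0.54 (0.0121) and -0.08 (0.876). Kiss1, which acts on gonadotropin-releasing neurons, differed by -0.32 (0.0186) and -0.13 (0.652). Trh, the thyrotropin-releasing hormone precursor, gave 0.25 and -1.66, Pmch 0.28 and -0.40, Gal 0.08 and -0.71, and Crh 0.12 and -0.55, and these 4 passed in neither set. Th, the rate-limiting enzyme of catecholamine synthesis, ran from 7.99 to 10.10 and from 7.49 to 10.86, and differed by -1.09 in replicates 1 to 4 and by 0.64 in replicates 5 and 6.

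Among 42 receptors of neuropeptides and hormones, 2 rose and 3 fell (median -0.01), beside 4.6% and 7.66% of all genes. Without 26-week replicate 5 it was 7 and 8. Mchr1, the receptor of melanin-concentrating hormone, ran from 7.86 through 7.93 to 8.06 at 6 weeks and from 7.27 through 7.52 to 7.84 at 26 weeks (-0.41 ± 0.09, adjusted p = 0.00905), with no overlap. Ntsr2, a neurotensin receptor of astrocytes, fell by 0.49 ± 0.11 (adjusted p = 0.00793), and Adcyap1r1, the PACAP receptor, differed by -0.32. Ntsr2 differed by -0.67 in replicates 1 to 4 and by -0.12 in replicates 5 and 6. Lepr, the leptin receptor, ran from 4.92 through 5.13 to 5.25 and from 5.29 through 5.43 to 5.80 (0.35 ± 0.10, adjusted p = 0.0291). Insr, the insulin receptor, differed by 0.30 (adjusted p = 0.0285), by 0.43 in replicates 1 to 4 and 0.06 in replicates 5 and 6. Both calls were lost without any 1 of several arrays: Lepr without 26-week replicate 2, 3 or 4 or 6-week replicate 1, 3 or 5 (adjusted p from 0.0547 to 0.089), and Insr without 26-week replicate 1, 2, 3 or 4 or 6-week replicate 1, 4 or 6 (adjusted p from 0.0509 to 0.0753). Insr also gave 0.18 with the mean of its 2 probe sets (adjusted p = 0.0771).

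Of 17 genes of the renin-angiotensin system and blood pressure, 1 rose and 1 fell (median -0.02). Agt, angiotensinogen, ran from 10.88 through 11.02 to 11.13 at 6 weeks and from 10.77 through 10.89 to 11.10 at 26 weeks (-0.09 ± 0.07, adjusted p = 0.385). Nos1, neuronal nitric oxide synthase, gave -0.04 ± 0.10 (adjusted p = 0.834), and Agtr1a, the angiotensin receptor, gave -0.07 ± 0.13 (adjusted p = 0.75), with 26-week replicate 6 at the level of unnamed probe sets. The gene that rose was Prkg1, a cGMP-dependent kinase (0.39), and the gene that fell was Edn3, an endothelin (-0.28). Prkg1 did not pass without 26-week replicate 1, 2 or 4 or 6-week replicate 5 (adjusted p from 0.0676 to 0.0756), nor Edn3 without 26-week replicate 1, 2 or 4 or 6-week replicate 1, 2, 3, 5 or 6 (0.0533 to 0.0997).

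Abca8a, a transporter of the ABCA subfamily linked to lipid export, had the largest rise among genes without overlap. It ran from 6.05 through 6.21 to 6.60 at 6 weeks and from 7.51 through 7.69 to 8.06 at 26 weeks, a rise of 1.45 ± 0.14 (adjusted p = 7.45e-07), or 2.74-fold. Its family members Abca6, Abca9, Abca8b and Abca5 were added after its values were seen. Abca6 ran from 4.49 through 4.63 to 4.71 and from 4.85 through 5.07 to 5.27, and since its 6-week level lies at that of unnamed probe sets its rise is at least 0.35 (adjusted p = 0.00335). Abca8b gave 0.35 ± 0.12 (adjusted p = 0.058), Abca9 0.15 and Abca5 0.08, and these 3 did not pass.

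Il33, an alarmin that oligodendrocytes and astrocytes hold in their nuclei, ran from 8.02 through 8.27 to 8.44 at 6 weeks and from 8.62 through 9.38 to 9.60 at 26 weeks (0.99 ± 0.14, adjusted p = 0.000611). The lowest 26-week value was that of replicate 6, still above every 6-week mouse. BC002059 rose by 0.82 ± 0.14 (adjusted p = 0.00163), and Fmn1, a formin that nucleates actin filaments, by 0.67 ± 0.11 (adjusted p = 0.00163). Atf7, a transcription factor of the CREB family named after the values were seen, rose by 0.32 ± 0.07 (adjusted p = 0.00523). Scn7a, a sodium sensing channel of circumventricular glia, gave 0.87 ± 0.25 (adjusted p = 0.0267), 1.13 in replicates 1 to 4 and 0.35 in replicates 5 and 6. Its call was lost without 26-week replicate 1, 2 or 4 or 6-week replicate 3 (adjusted p from 0.0588 to 0.0775).

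Among the 12 largest falls without overlap were enzymes and membrane proteins of varied roles. Aacs, which activates ketone bodies for lipid synthesis, ran from 8.65 through 8.77 to 8.85 at 6 weeks and from 7.76 through 7.85 to 8.48 at 26 weeks (-0.73 ± 0.13, adjusted p = 0.00164). Wdr6 fell by 0.66 ± 0.11, the palmitoyltransferase Zdhhc7 by 0.65 ± 0.11, the ubiquitin ligase Rnf122 by 0.64 ± 0.09, the lysosomal polyamine transporter Atp13a2 by 0.63 ± 0.13 and the G protein Gna12 by 0.63 ± 0.10 (adjusted p from 0.000433 to 0.0043). In replicates 5 and 6 the values of these 6 genes were -0.34, -0.49, -0.33, -0.50, -0.24 and -0.44. Pex5, not among these 12 and named after the values were seen, ran from 8.26 through 8.32 to 8.38 and from 7.71 through 7.79 to 7.95 (-0.52 ± 0.06, adjusted p = 9.81e-05). Carnmt1, a carnosine methyltransferase, gave -0.85 ± 0.24 (adjusted p = 0.0219) on its brightest probe set. It did not pass with the mean of its 3 probe sets (-0.14, adjusted p = 0.397) or without 26-week replicate 1 or 2 (adjusted p from 0.0519 to 0.0642).

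Several groups had larger median differences from 6 weeks in replicates 1 to 4 than in replicates 5 and 6. Of 26 cytosolic ribosomal proteins, 11 rose and 0 fell, with a median difference of 0.30, of 0.42 in replicates 1 to 4 and of 0.09 in replicates 5 and 6. Rps4x, a protein of the small subunit, ran from 9.66 through 9.72 to 9.85 at 6 weeks. It was between 10.60 and 10.90 in replicates 1 to 4, at 10.07 in replicate 5 and at 9.92 in replicate 6 (0.77 ± 0.16 over all 6, adjusted p = 0.00503). Rps6 (0.75), Rps12 (0.71) and Rps28 (0.68) showed the same order. These genes have near-identical copies in the genome and 4 to 7 probe sets each, so their values are uncertain, and the means of all probe sets gave 0.68 for Rps4x, 0.30 for Rps6, 0.32 for Rps12 and 0.44 for Rps28. The count of 11 was 7 without 26-week replicate 2 or 4 and 17 without replicate 6.

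Of 21 immediate early genes, which neurons switch on within minutes of activity, 4 rose and 0 fell (median 0.16; 0.30 in replicates 1 to 4 and -0.05 in replicates 5 and 6). Npas4, a transcription factor tied to neuronal activity, ran from 5.24 through 5.48 to 5.70 at 6 weeks. It was between 6.44 and 6.92 in replicates 1 to 4, and 5.73 and 5.74 in replicates 5 and 6 (0.87 ± 0.20, adjusted p = 0.0099). Btg2, an antiproliferative gene, rose by 0.33 ± 0.08 (adjusted p = 0.0106). Fos gave 0.68 (adjusted p = 0.0367) and the phosphatase Dusp1 0.68 (adjusted p = 0.0219). The Fos call was lost without any of 26-week replicates 1 to 4 or 6-week replicate 1, 2, 4 or 6 (adjusted p from 0.05004 to 0.104), and that of Dusp1 without 26-week replicate 1 or 2 or 6-week replicate 2 (0.0527 to 0.0608). The count of 4 was 2 without 26-week replicate 1 or 2 or 6-week replicate 2.

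Ependyma lines the third ventricle beside the hypothalamus and choroid plexus lies within that ventricle. Markers of both were measured as a check on the dissection. Their list mean ran from 5.85 to 6.12 at 6 weeks, from 6.40 to 7.89 in replicates 1 to 4, and was 5.78 and 5.85 in replicates 5 and 6. Ttr, transthyretin, the main product of the choroid plexus, ran from 6.85 through 8.68 to 9.69 at 6 weeks, from 9.23 to 13.57 in replicates 1 to 4, and was 6.11 and 8.61 in replicates 5 and 6 (2.10 ± 1.16, adjusted p = 0.229). Over all 6 mice, 3 of 17 genes rose and 0 fell (median 0.51; 0.79 in replicates 1 to 4 and -0.12 in replicates 5 and 6). Clic6, a chloride channel protein of the plexus, gave 1.08 ± 0.33 (adjusted p = 0.0335). F5, coagulation factor V, lies near the level of unnamed probe sets and rose by at least 0.39. Cldn2, the third, is too dim at 6 weeks for a size.

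The count of 3 choroid plexus genes was 0 without 26-week replicate 2 or 4 or 6-week replicate 1, 2, 3, 5 or 6, was 1 or 2 without 26-week replicate 1 or 3 or 6-week replicate 4, and was 6 and 5 without 26-week replicates 5 and 6. In replicates 1 to 4, 16 of the 17 genes passed as higher and 1 as lower, beside 15.1% and 15.6% of all genes in that contrast. The markers of meninges and fibroblasts had list means of 6.26 to 7.18 at 6 weeks, 6.17 to 7.62 in replicates 1 to 4, and 6.34 and 5.93 in replicates 5 and 6, with 0 of 15 genes higher and 1 lower, Col3a1, which did not pass without 26-week replicate 1, 2 or 4 or 6-week replicate 1 or 3 (adjusted p from 0.0508 to 0.0700). The part of either tissue in the other differences of replicates 1 to 4 was not tested.

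**Figure D4:**
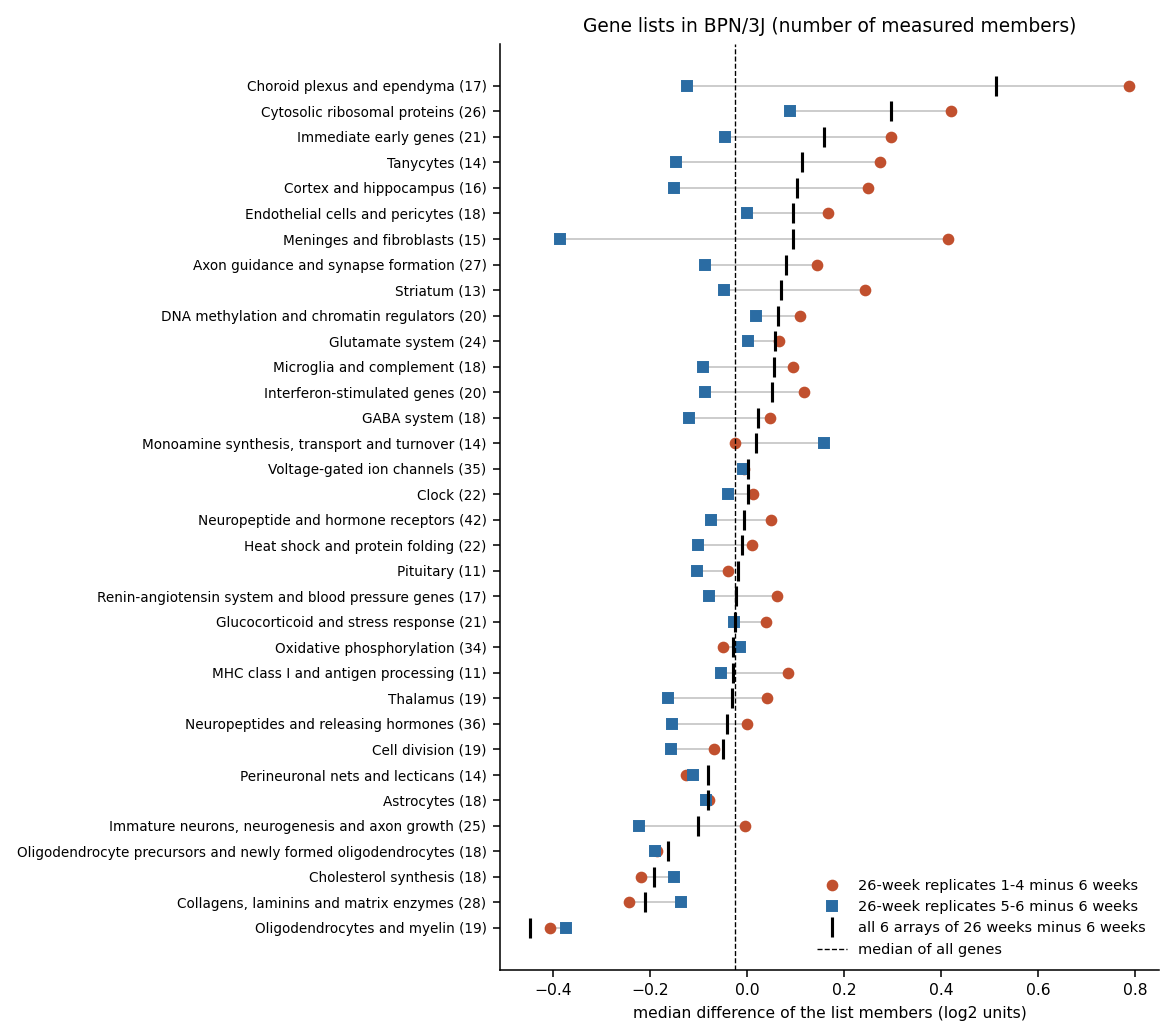
Each row is a gene list with its number of measured genes, and the x axis is the median difference of its genes from 6 weeks in log2 units: red circles for 26-week replicates 1-4, blue squares for replicates 5-6, black bars for all 6 mice and a dashed line at the median of all genes (-0.03). Oligodendrocyte and cholesterol lists lie left of the line in both sets, while choroid plexus, meninges and ribosomal lists lie far apart between the sets.

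The metallothionein Mt2, a zinc and copper buffer that follows glucocorticoids, ran from 11.58 through 11.82 to 12.02 at 6 weeks, from 10.62 to 10.74 in replicates 1 to 4, and was 11.88 and 11.57 in replicates 5 and 6 (-0.80 ± 0.19, adjusted p = 0.0106). Its values in replicates 5 and 6 lay at the 6-week level. Of the 21 glucocorticoid and stress response genes, 0 rose and 3 fell (median -0.03), and 1 fell without 26-week replicate 1 or 2. Enzymes of oxidative phosphorylation included Atp5d at -0.53, Uqcrc1 at -0.50 and Cox5b at -0.44 over all 6 mice and at -0.14, -0.15 and -0.09 in replicates 5 and 6. Of the 34 genes of that list, 2 rose (Ndufa1 by 0.43 and Cox4i1 by 0.29) and 4 fell, with a median of -0.03. Over all genes, 4.6% rose and 7.66% fell. The count of 2 was 1 without any 1 of 26-week replicates 1 to 4 or 6-week replicates 1 to 4 or 6 and 5 without 26-week replicate 6, and 10 genes fell without replicate 5.

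Astrocyte markers gave 0 higher and 3 lower of 18 (median -0.08). The glutamate transporter Slc1a3 ran from 10.81 through 10.91 to 10.97 at 6 weeks and from 10.52 through 10.62 to 10.74 at 26 weeks (-0.28 ± 0.07, adjusted p = 0.0146). The growth factor receptor Fgfr3 fell by 0.46 ± 0.10 and the folate enzyme Aldh1l1 by 0.26 ± 0.06, and in none of the 3 did the ages overlap. Fgfr3 differed by -0.59 in replicates 1 to 4 and -0.20 in replicates 5 and 6, Aldh1l1 by -0.29 and -0.20, and Slc1a3 by -0.26 and -0.31. Gfap, the astrocyte filament protein, gave -0.25 ± 0.27 (adjusted p = 0.556). Of 28 collagens, laminins and matrix enzymes 0 rose and 3 fell, beside 7.66% of all genes that fell, with a median of -0.21. The other 25 did not pass, and 6 fell without 26-week replicate 3, 5 or 6. Sparc, a collagen-binding protein, fell by 0.37 ± 0.09 (adjusted p = 0.00945) and Col5a2 by at least 0.33. Sparc differed by -0.49 in replicates 1 to 4 and by -0.13 in replicates 5 and 6. Of 14 genes of perineuronal nets, 0 rose and 3 fell, the lectican Bcan (-0.44 ± 0.11, adjusted p = 0.0129), the lectican Ncan and the link protein Hapln4. Bcan differed by -0.62 in replicates 1 to 4 and by -0.08 in replicates 5 and 6. Ncan did not pass without 26-week replicate 2 (adjusted p = 0.0563), nor Hapln4 without 26-week replicate 1 or 2 or 6-week replicate 1 (0.0514 to 0.0581), and the count was 2 without each of these arrays.

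For neurotransmission, 1 of 18 genes of the GABA system rose and 2 fell (median 0.02), beside 4.6% and 7.66% of all genes. The rise was that of Gabrb1, a subunit of the GABA-A receptor, which did not pass without 26-week replicate 1, 2 or 4 or 6-week replicate 1 (adjusted p from 0.0636 to 0.0725). Slc6a11, the glial GABA transporter, fell by 0.42 ± 0.10 (adjusted p = 0.0100) and Abat, the enzyme that breaks GABA down, by 0.21 ± 0.05 (adjusted p = 0.0128), both with no overlap. Slc6a11 differed by -0.55 in replicates 1 to 4 and -0.15 in replicates 5 and 6, and Abat by -0.19 and -0.25. Of 24 glutamate genes 1 rose and 1 fell, and of 35 ion channels 1 rose and 2 fell. Without 26-week replicate 4 the glutamate genes gave 0 in both directions, and the 2 ion channels that fell were 0 without 26-week replicate 2 or 4 or 6-week replicate 3, 4 or 6. Without 26-week replicate 5 the rises were 5 and 6. Kcnd3, an A-type potassium channel, rose by 0.30 ± 0.06 (adjusted p = 0.00562). Among 25 genes of immature neurons, 1 rose and 2 fell, and 1 fell without 6-week replicate 1 and 5 without 26-week replicate 5. Dcx, the microtubule protein of migrating neurons, ran from 6.49 through 6.60 to 6.82 at 6 weeks and from 6.68 through 7.14 to 7.34 at 26 weeks (0.47 ± 0.11, adjusted p = 0.0100), while Crmp1, a collapsin response mediator, fell by 0.27 ± 0.07 (adjusted p = 0.0195).

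Of the 22 clock genes 0 rose and 0 fell by limma (median 0.00), and 6 had an unadjusted p below 0.05. For age in BPN, 5834 of 19937 genes had an unadjusted p below 0.05. The unadjusted counts of lists in this paragraph are to be read beside that share. Per2 gave 0.01 ± 0.09 (adjusted p = 0.973). Of 19 cell division genes 0 passed and 3 had an unadjusted p below 0.05, and of 11 genes of MHC class I and antigen processing 0 and 1. Microglia and complement gave 1 higher and 0 lower of 18 (median 0.05), and interferon-stimulated genes 1 and 0 of 20 (median 0.05). The microglial gene was Laptm5, which did not pass without 26-week replicate 2, 3 or 4 or 6-week replicate 2, 3 or 4 (adjusted p from 0.0503 to 0.0772). The interferon gene was Ifi27, which did not pass without any 1 of 26-week replicates 1 to 4 or 6-week replicates 1 to 3, 5 or 6 (0.0504 to 0.0756). Each list had 3 rises without 26-week replicate 6. Thalamus markers, which would show tissue from above the hypothalamus, gave 0 and 0 of 19 (median -0.03, 1 at an unadjusted p below 0.05), with list means from 9.22 to 9.56 at 6 weeks and from 8.86 to 9.57 at 26 weeks. The value of 8.86 was that of replicate 5, and the next 26-week mouse was at 9.28. Pituitary markers passed in 0 of 11 and striatum markers in 0 of 13 (1 of each at an unadjusted p below 0.05), and red blood cell markers in 0 of 2 (2 unadjusted). The pituitary list mean was 5.69 in 26-week replicate 3 and at most 5.49 on the other BPN arrays. Cortex and hippocampus markers gave 0 higher and 1 lower of 16, Cux2, which did not pass without 26-week replicate 1, 2 or 4 (adjusted p from 0.0532 to 0.0702). In replicates 1 to 4, 5 of the 16 passed as higher and 1 as lower, beside 15.1% and 15.6% of all genes in that contrast. Their list mean was 7.93 in 26-week replicate 4 and from 6.85 to 7.22 on the other BPN arrays. The part of such tissue in the other differences was not tested.

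The protocadherin beta cluster, adhesion genes that give neurons their surface identity, was singled out after its values were seen. Of 22 genes 17 rose and 0 fell, beside 4.6% and 7.66% of all genes, with differences from 0.17 to 0.64 and a median of 0.44. Pcdhb20 rose by 0.64 ± 0.11 (adjusted p = 0.00163) and Pcdhb2 by 0.61 ± 0.13 (adjusted p = 0.00545). The median was 0.42 in replicates 1 to 4 and 0.41 in replicates 5 and 6, where it was 0.19 for replicate 5 and 0.74 for replicate 6. The members are close copies of one another, so probes may be shared between them and the genes do not count as separate observations. In BPH/2J, 9 of the 22 rose and 0 fell (median 0.27).

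Replicate 6 of 26 weeks stood apart in some small noncoding RNAs, also singled out after its values were seen. Mir384 read 7.03 there and from 2.98 to 3.50 in the other 5 mice of 26 weeks, and Mir690 read 8.36 against 4.19 to 4.56. Rian, a long noncoding RNA of an imprinted cluster, read 9.27 there, 6.22 in replicate 5 and 6.76 to 7.39 in replicates 1 to 4. The median of unnamed probe sets was 5.25 on this array and between 4.69 and 4.80 on the other 11 BPN arrays. Over 51 small nucleolar RNA genes the median difference from 6 weeks was 0.98 in replicate 6 and 0.12 in replicate 5. Over 291 microRNA genes it was 0.11 and 0.00, so the 2 named are not typical of them.

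The same contrast in BPH/2J mice, which shares no array with the BPN contrast, gave 3362 genes (16.9%), 1640 higher (8.23%) and 1722 lower (8.64%). In both strains 990 genes passed in the same direction, 40.5% of the BPN genes and 29.4% of the BPH genes, and 4 passed in opposite directions. Over all genes the differences of the 2 strains had Pearson's r = 0.56 and Spearman's rho = 0.57, a description over genes that are not independent. Gpr17 gave -1.02 in BPN and -1.01 in BPH, Abca8a 1.45 and 1.40, Pex5 -0.52 and -0.50, Il33 0.99 and 1.25, Hcrt -1.29 and -1.09, and Cartpt -0.77 and -0.95. For these 6 genes the difference between the strains had an adjusted p from 0.711 to 0.999.

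The myelin list had a median of 0.07 in BPH, with 3 genes higher and 2 lower, beside -0.45 in BPN. The strain by age interaction, which tests the difference itself, passed for 0 of its 19 genes by limma (9 at an unadjusted p below 0.05), with Tspan2 at -0.48 ± 0.14 between strains (adjusted p = 0.146). Cholesterol synthesis had a median of -0.11 in BPH (2 higher, 2 lower), and 0 of 18 passed the interaction (5 unadjusted). Thalamus markers had a median of 0.78 in BPH with 14 of 19 higher, where BPN had none. Whether differing thalamic tissue has a part in differences between the strains was not tested. A fit with the thalamus marker mean as a covariate gave 2565 genes in BPN, 8 in BPH and 0 for the interaction. In BPH that mean ran from 7.91 to 9.30 at 6 weeks and from 9.25 to 9.50 at 26 weeks. It moved with age there, so such a fit cannot tell thalamic tissue from age in BPH.

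Over all genes the interaction passed for 6 (0.0301%), with BPN above BPH in 5 (0.0251%) and below it in 1 (0.00502%), and 2160 had an unadjusted p below 0.05. Slit2, a guidance cue for axons, ran from 7.38 through 7.79 to 8.03 at 6 weeks and from 7.94 through 8.12 to 8.32 at 26 weeks in BPN (0.35 ± 0.13) and gave -0.64 in BPH, a difference between strains of 0.99 (adjusted p = 0.0459). N4bp2 gave 0.35 and -0.52, the diacylglycerol kinase Dgkk 0.13 and -0.66, the coenzyme Q kinase Coq8b 0.02 and -0.54, and the receptor phosphatase Ptpro 0.09 and -0.70. Srpx2, a secreted protein of synapse formation, gave -0.19 in BPN and 0.82 in BPH. Of these only N4bp2 passed in BPN itself (adjusted p = 0.0283), and not without 26-week replicate 1, 2 or 4 or 6-week replicate 1, 3, 5 or 6 (adjusted p from 0.0515 to 0.0747). The interaction count of 6 was 0 without any 1 of 14 arrays: BPN 26-week replicate 1, 2, 3 or 6, BPN 6-week replicate 1, 3, 5 or 6, BPH 26-week replicate 4 or 5 and BPH 6-week replicate 1, 3, 4 or 5. It was 3, 2 and 3 without BPH 26-week replicate 1, BPH 26-week replicate 2 and BPN 6-week replicate 4, 31 without BPN 26-week replicate 5 and 496 without BPH 6-week replicate 2.

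**Figure D5:**
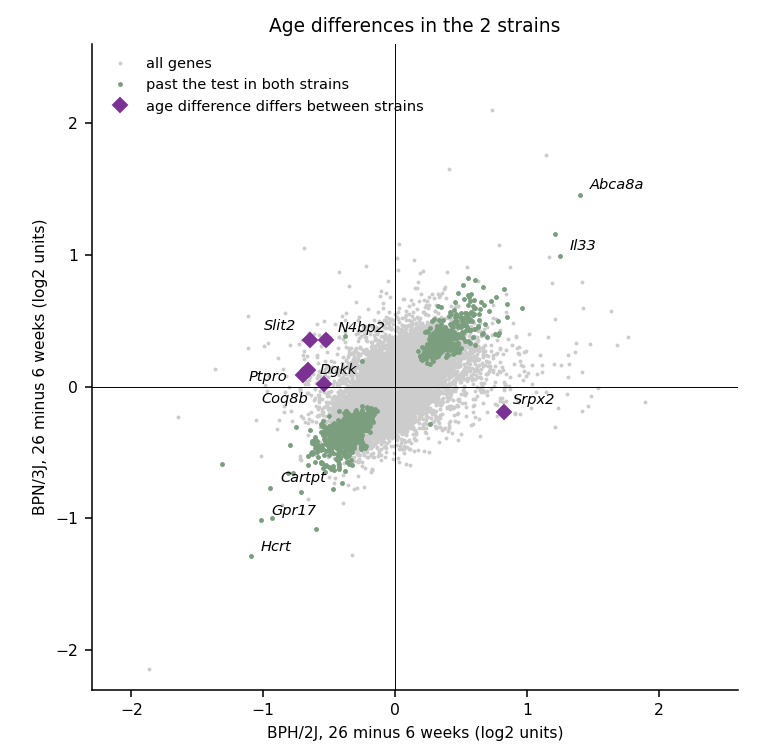
Each point is 1 of 19937 genes, with the difference 26 minus 6 weeks in BPH/2J on the x axis and in BPN/3J on the y axis, both in log2 units. Green points passed in both strains, and purple diamonds are the 6 genes whose age difference differed between strains; Gpr17, Hcrt, Cartpt, Abca8a and Il33 lie near the line of equal differences.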

How the data were processed

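Total RNA of 24 male hypothalami, 6 for each strain and age, was measured, 1 mouse to an array. The authors' deposited values are log2 levels of 34760 probe sets. The submitters' processing notes name RMA and limma. RMA equalises the arrays, so differences are relative to the other genes. Not given in the sources used here are tool versions, the array annotation and any build. Groups and replicate numbers came from the titles, every sample column was mapped (0 columns not used), and no array was left out. The strain name BPN/3J is that of the sample labels, and the series design text has another suffix in 1 place.

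The members and the gene lists were chosen with earlier results of these data known. Of the probe sets, 21640 had 1 gene symbol in the platform annotation, 1321 had several and 11799 had none. The probe set with the highest mean over the 24 arrays stood for its gene, which gave 19937 genes, and 712 of 796 entries in 35 lists were matched. The fit was limma 3.58.1 in R 4.3.3 with a mean per group on all 24 arrays (20 residual degrees of freedom), and Benjamini-Hochberg adjustment over all genes with a threshold of 0.05. The contrasts were 26 minus 6 weeks in BPN/3J, the same in BPH/2J and their difference. Replicates 1 to 4 and 5 and 6 of 26 weeks were each set against 6 weeks in a fit of the 12 BPN arrays, and these 2 contrasts share the 6-week arrays. Lists are described by counts and medians, and the counts for age in BPN stand beside 4.6% of all genes higher and 7.66% lower.

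Genes were named by a rule: the 12 largest differences in each direction among passing genes without overlap, up to 4 passing members of each list, up to 5 interaction genes in each direction and 25 fixed genes, of which 1 was not analysed here. Some genes outside the rule, among them Pex5 and Atf7, were chosen after the values were seen. Where the dimmer group had an array at or below its median of unnamed probe sets, values were raised to that median and the difference of a passing gene is a lower bound. Promoters came from RefSeq (GRCm38.p6). On simulated data with 200 of 19937 genes changed, 5.20% of calls for age in BPN were false, and 99.1% of changes of 1 log2 unit and 80.4% of changes of 0.5 were recovered. Each simulated gene had the same spread in every group, unlike the real mice. Same-numbered mice of the 2 ages did not deviate together in BPN (r from -0.10 to 0.05). Alternatives changed the arrays in the fit, the probe set rule, a filter on dim genes, the scaling, the variance prior, array weights, a replicate block, the 26-week arrays used, a thalamus covariate, and left out each array in turn.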

Additional observations from a re-analysis of the deposited data

Results flagged for a closer look

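For each of the named genes, the highest or lowest mouse of each BPN group was set against the rest of its group, which chance alone marks in about 1 of 20 groups; 13 of 248 groups were marked. At 26 weeks, replicate 6 was far below the others in Hcrt (7.29) and Ifi27 (7.72) and far above them in Mir690 (8.36) and Mir384 (7.03). Mir690 and Mir384 were named for their values in replicate 6, so their marks, counted among the 13, were fixed beforehand. Replicate 5 of 26 weeks was apart as the highest in Olig1 (9.56) and Mvd (8.26) and as the lowest in Kdm5d (6.79), and replicate 3 as the highest in Col3a1 (6.57). At 6 weeks, replicate 2 was the lowest in Uqcrc1 (11.35) and Hcn2 (9.35), replicate 4 in Edn3 (6.29) and replicate 5 in Trh (6.70), and replicate 1 was the highest in Kdm5d (7.07).

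For 6 genes the age difference in BPN/3J differed from that in BPH/2J by the interaction term of limma. BPN minus BPH was 0.88 for N4bp2, 0.78 for Dgkk, 0.56 for Coq8b, 0.99 for Slit2, 0.78 for Ptpro and -1.01 for Srpx2.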

How the results depend on the processing

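The 2445 genes of the BPN age contrast (917 higher, 1528 lower) became 6416 with array weights (2978 higher, 3438 lower), 6702 with 26-week replicates 1 to 4 alone (3345 and 3357), 27 with replicates 5 and 6 alone (12 and 15) and 4777 with a term for replicates 5 and 6 (2134 and 2643). Leaving out 1 array gave 1034 to 4230 genes, 335 to 1749 higher and 695 to 2481 lower. The BPH count of 3362 became 7475, 7843, 388 and 5298 in the same order, 8 with the thalamus covariate, and 2138 to 4838 without 1 array. The 6 interaction genes became 23 without dim genes, 34 with quantile normalisation, 31 with an intensity trend and robust prior, 683 with array weights, 19 with replicates 1 to 4 alone, 0 with replicates 5 and 6 alone, 251 with the term for replicates 5 and 6, 0 with the thalamus covariate, and 0 to 496 without 1 array. Replicates 1 to 4 gave 4555 to 6929 genes without 1 array. The 15 genes of replicates 5 and 6 became 27 without dim genes, 93 in a fit of all arrays, and 3 to 1403 without 1 array, which leaves 1 mouse in the arm without replicate 5 or 6. With a replicate block the counts were 2445 in BPN (2075 of them shared with the fit without it), 3425 in BPH and 28 for the interaction; the mice share only a number, since same-numbered mice correlated at -0.10 to 0.05 in BPN and 0.01 to 0.41 in BPH, and 0 of 6 and 2 of 6 were closest to their own number. Of 94 named genes that passed, 61 passed in every fit without 1 array and 7 under every alternative run, and none of the 94 changed direction under any alternative run. Some of the 7, among them Pex5 and Atf7, were named because they passed in both sets of 26-week mice. Replicates 5 and 6 alone are one of the alternatives, so the count of 7 was partly fixed by that choice. The causes were not tested.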

Other observations

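Further groups had few passing genes, described here by the same fit. Of 18 markers of endothelial cells and pericytes 1 rose and 1 fell (median 0.09). Rgs5, a G protein regulator of pericytes, ran from 8.66 through 8.85 to 9.15 at 6 weeks and from 9.19 through 9.34 to 9.44 at 26 weeks, with no overlap (0.46 ± 0.10, limma adjusted p = 0.00737), and differed by 0.45 in replicates 1 to 4 and 0.48 in replicates 5 and 6. Slc2a1, the glucose transporter of the blood-brain barrier, fell by 0.43 ± 0.12 (adjusted p = 0.0195), by -0.63 in replicates 1 to 4 and -0.02 in replicates 5 and 6. Its call was lost without 26-week replicate 1, 2 or 4 (adjusted p from 0.0525 to 0.0589), and 3 genes of the list rose without replicate 5 or 6.

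Of 20 regulators of DNA methylation and chromatin 3 rose and 1 fell (median 0.06). Tet2, which oxidises methylcytosine, rose by 0.46 ± 0.12 (adjusted p = 0.0153), Eed, a subunit of the Polycomb complex that methylates histone H3, by 0.56 ± 0.13 (adjusted p = 0.0115), and Kdm5d, a histone demethylase of the Y chromosome, by 0.38 ± 0.11 (adjusted p = 0.0228). Hmgb2, a DNA-bending protein abundant in dividing cells, ran from 8.29 through 8.47 to 8.60 and from 7.49 through 7.73 to 8.29 (-0.63 ± 0.16, adjusted p = 0.0151) on its brightest probe set, and gave -0.04 with the mean of its 4 probe sets (adjusted p = 0.841). The mean of the 2 probe sets of Eed gave 0.27 (adjusted p = 0.0280). Kdm5d did not pass without 26-week replicate 2 or 4 (adjusted p of 0.0602 to 0.0666), and without 26-week replicate 5 or 6 the list had 5 rises, with 2 falls without replicate 6.

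Of 22 genes of heat shock and protein folding 0 rose and 2 fell (median -0.01). Herpud1, a membrane protein of endoplasmic reticulum quality control, ran from 10.17 through 10.21 to 10.29 and from 9.92 through 10.01 to 10.06, with no overlap (-0.22 ± 0.05, adjusted p = 0.0125). Sdf2l1, also of the endoplasmic reticulum, did not pass without any 1 of 26-week replicates 1 to 4 or 6-week replicates 3, 4 or 6 (adjusted p from 0.0568 to 0.0818). Of 14 genes of monoamine synthesis and transport 0 passed by limma and 2 had an unadjusted p below 0.05 (median 0.02), beside 5834 of 19937 genes. Of 14 tanycyte markers 1 rose, Scn7a, and 0 without 26-week replicate 1, 2 or 4 or 6-week replicate 3. Of 27 genes of axon guidance and synapse formation 1 rose, the neuroligin Nlgn1 (0.38), and 1 fell, the cadherin Cdh13 (-0.27). Nlgn1 did not pass without 26-week replicate 4 (adjusted p = 0.0545), nor Cdh13 without any 1 BPN array other than 26-week replicate 5 or 6-week replicate 2 (0.0509 to 0.0928).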
